A study of Mus musculus with 6 samples.

Results

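Methylated DNA was mapped as 83968 peaks on the mouse chromosomes, and 3289 of them (3.92%) were wider than 1000 bp. These wide peaks were taken from a single deposited list of 84111 complete peaks by 1 rule, chosen by their width alone: an end minus start of more than 1000 bp on an assembled chromosome. The other 80679 chromosome peaks, of 1000 bp or less, are called narrower peaks below and serve as the comparison. The rule used a measured value, so the width, fold enrichment, significance, pileup and background of the wide peaks are given as a description without a test.

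The study profiled DNA methylation in 6 primary chondrocyte cultures from the knee articular cartilage of mice at postnatal days 3 to 5, to learn how Dnmt1 shapes gene expression through DNA methylation. The 3 control cultures are labelled Dnmt1 flox, and the 3 conditional knockout (cKO) cultures Prx1-Cre;Dnmt1 flox/flox. Both groups therefore carry a floxed Dnmt1 allele. Prx1-Cre acts in limb mesenchyme, from which chondrocytes and several other limb cell types arise. The list analysed here was called on 3 merged datasets and is labelled as Dnmt1-mediated DNA methylation regions. Whether cKO cultures served as its background is not given in the sources used here. The peak names do not tell which group the datasets came from, and no value belongs to a single culture. No control against cKO comparison, replicate spread or depth per sample could thus be given. The list holds no expression values, so the chondrocyte label could not be checked against marker genes. Intervals below are 95% Wilson intervals that cover counting error only, and neighbouring peaks are not independent.

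In mammals, DNA methylation sits mainly on cytosines of CpG dinucleotides, and Dnmt1 copies it to the new strand after replication. Most active CpG-rich promoters are free of it, whereas bodies of transcribed genes, silenced germline genes, repeats and the silent allele of imprinted control regions carry it. MBD-seq captures sonicated fragments, here of about 300 bp, with the methyl-CpG-binding protein MBD2, so its signal depends on methylation and on CpG density together. A peak of more than 1000 bp is a stretch over which the captured signal stayed above the caller's background for several fragment lengths.

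Wide peaks that cover a transcription start of an imprinted or a germline gene give examples of such stretches in sequence. The 250 bases before a start are printed for 6 of these genes, each of which lies whole inside a wide peak, read 5′ to 3′ on the plus strand from the RefSeq promoter table of GRCm38.p6. Capitals mark every CG dinucleotide. The imprinted gene Meg3, with 10 CG in its 250 bases, also lay whole inside a wide peak but is not printed. The first group holds imprinted genes: Gnas, the gene of a stimulatory G-protein subunit, at chr2:174327518-174327767 with 22 CG; Mcts2, a retrogene inside H13, at chr2:152686898-152687147 with 20; and Plagl1, a zinc finger transcription factor, at chr10:13090582-13090831 with 19.
Gnas: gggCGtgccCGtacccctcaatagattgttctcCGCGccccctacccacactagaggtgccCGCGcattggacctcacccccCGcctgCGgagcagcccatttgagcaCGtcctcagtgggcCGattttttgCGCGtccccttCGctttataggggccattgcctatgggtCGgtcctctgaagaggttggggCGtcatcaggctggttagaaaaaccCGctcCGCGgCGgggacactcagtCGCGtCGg
Mcts2: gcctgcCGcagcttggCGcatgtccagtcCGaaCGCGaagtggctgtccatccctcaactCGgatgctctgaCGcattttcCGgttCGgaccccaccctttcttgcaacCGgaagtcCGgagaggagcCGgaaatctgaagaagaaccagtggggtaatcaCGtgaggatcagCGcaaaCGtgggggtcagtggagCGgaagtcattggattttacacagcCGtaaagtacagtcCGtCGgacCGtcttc
Plagl1: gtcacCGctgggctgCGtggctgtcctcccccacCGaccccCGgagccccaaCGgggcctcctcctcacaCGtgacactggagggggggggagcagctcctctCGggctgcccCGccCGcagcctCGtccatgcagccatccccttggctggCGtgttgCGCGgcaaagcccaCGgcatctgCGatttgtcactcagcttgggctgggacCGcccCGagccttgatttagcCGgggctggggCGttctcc

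The second group holds germline genes. Meioc, a regulator of meiotic prophase, is shown at chr11:102665335-102665584 with 22 CG. Sohlh2, a transcription factor of early germ cells, is shown at chr3:55181794-55182043 with 14, and Sycp3, a component of the synaptonemal complex, at chr10:88459337-88459586 with 12.
Meioc: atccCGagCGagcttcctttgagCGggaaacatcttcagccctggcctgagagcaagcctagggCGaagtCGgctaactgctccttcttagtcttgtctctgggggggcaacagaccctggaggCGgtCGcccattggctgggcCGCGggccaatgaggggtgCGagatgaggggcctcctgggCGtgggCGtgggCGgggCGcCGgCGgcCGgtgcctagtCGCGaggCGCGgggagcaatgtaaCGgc
Sohlh2: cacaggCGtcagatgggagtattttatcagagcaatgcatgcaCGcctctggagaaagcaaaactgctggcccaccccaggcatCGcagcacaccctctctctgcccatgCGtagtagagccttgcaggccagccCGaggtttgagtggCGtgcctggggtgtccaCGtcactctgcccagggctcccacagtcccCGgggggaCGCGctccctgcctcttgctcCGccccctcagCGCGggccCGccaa
Sycp3: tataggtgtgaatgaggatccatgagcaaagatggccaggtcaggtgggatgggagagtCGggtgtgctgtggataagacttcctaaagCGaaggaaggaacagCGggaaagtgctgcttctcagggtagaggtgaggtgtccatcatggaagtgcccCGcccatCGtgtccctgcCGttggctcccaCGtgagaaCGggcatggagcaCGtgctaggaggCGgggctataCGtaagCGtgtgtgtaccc

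Among 775 microRNA genes on the covered chromosomes, 14 (1.81%) overlapped a wide peak and 104 a narrower peak. Mir127 and Mir434 are shown because both lie in wide peaks within Rtl1, an imprinted retrotransposon-derived gene from whose antisense strand these microRNAs are made. Capitals mark the seed, bases 2 to 8 of the mature RefSeq sequence, and the 4 seeds differ from each other.
mmu-miR-127-5p: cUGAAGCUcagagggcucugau
mmu-miR-127-3p: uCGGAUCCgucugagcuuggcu
mmu-miR-434-5p: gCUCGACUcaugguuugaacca
mmu-miR-434-3p: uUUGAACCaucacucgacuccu

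The median wide peak spanned 1228 bp (quartiles 1088 and 1467 bp), and the widest spanned 7120 bp. Narrower peaks had a median of 404 bp. Wide peaks made up 3.92% of the peaks but 11.6% of the bases in peaks, 4.45 of 38.4 Mb. The median fold enrichment deposited by the authors was 14.7 for wide and 13.2 for narrower peaks, but the wide peaks were spread further, with quartiles of 5.15 and 29.3 against 8.55 and 21.5. A fold under 5 was found in 775 wide peaks (23.6%) and in 2.30% of narrower ones. A fold of 30 or more was found in 780 wide peaks (23.7%) and in 10.2% of narrower ones. Wide peaks thus occupied both the low and the high end of the scale. The summit, the highest point of a peak, lay in the first or last 25% of the interval in 33.8% of wide and 3.76% of narrower peaks.

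Fold enrichment is a pileup, the reads stacked at the summit, over a background, and both were recovered from the deposited fold and p-value. What reads the caller took its background from is not given in the sources used here. The lowest background among peaks with a matched whole-number pileup was 6.37 reads, a value shared by many peaks. In 5 narrower peaks without a match the recovered value fell below it, and these were put in neither class. Of the wide peaks 839 (25.5%, interval 24.0% to 27.0%) stood on this lowest background and 2450 (74.5%) on a higher one. Among narrower peaks the proportions were turned round, with 77.0% on the lowest background. The difference of -51.5 percentage points had the same direction on 16 of 16 chromosomes. Background and width come from the same caller output, so this agreement only describes the list and is no test of the difference. The share on the lowest background was 96.5% up to 250 bp, 50.1% between 500 and 750 bp, 31.1% between 1000 and 1250 bp and 12.5% above 2000 bp. Backgrounds at least 10 times the lowest were found under 34.3% of wide and 3.67% of narrower peaks. A high background here means only that the caller's background value was high at that place, and what made it high was not tested.

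**Figure D1:**
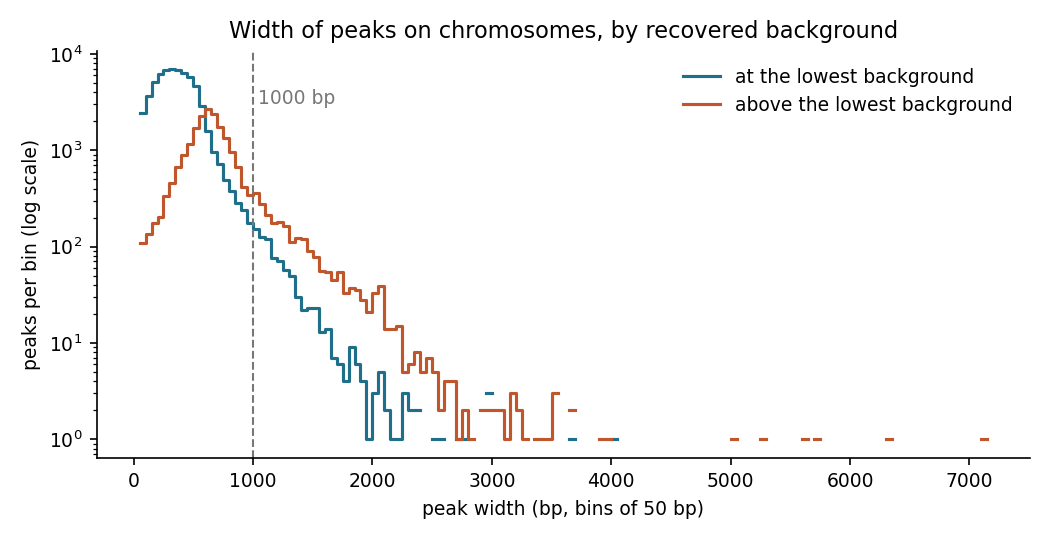
Number of chromosome peaks per 50 bp of width (log scale), for peaks at the lowest background and above it, with the 1000 bp limit dashed. Peaks at the lowest background fall off faster, and above 1000 bp the 2450 peaks above the lowest background outnumber the 839 at it.

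The 2 kinds of wide peak differed in height as well. On the lowest background the median pileup was 239 reads and the median fold 32.6, with quartiles of 26.2 and 39.6 and a range from 9.77 to 59.4. Above it, the median pileup was 393 reads, but over a median background of 54.5 reads the fold was 7.57, with quartiles of 4.51 and 19.02 and a range from 1.91 to 149. The kind with the higher median pileup thus had the lower median fold.

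**Figure D2:**
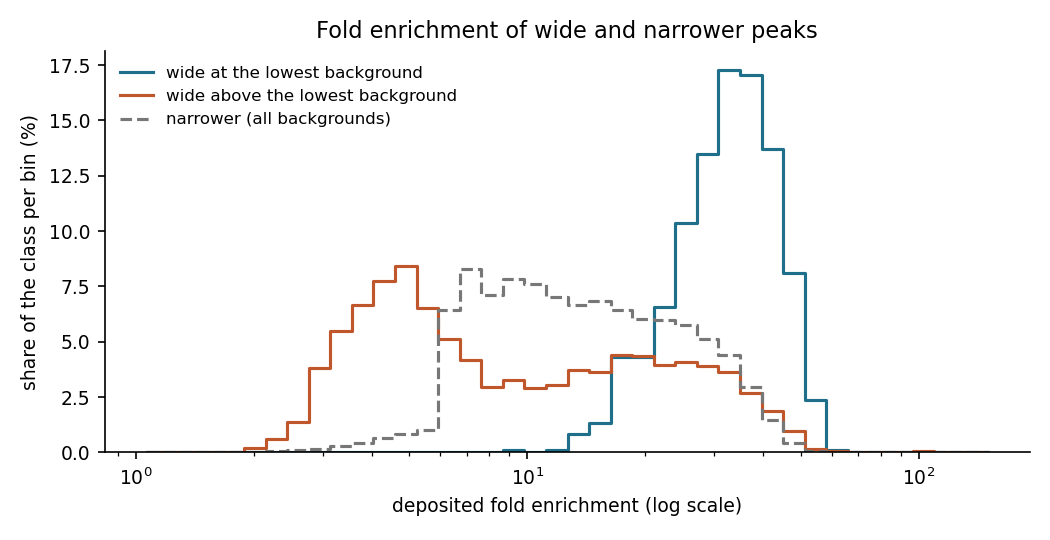
Share of each class of peaks (%) per bin of deposited fold enrichment (log scale), for wide peaks at the lowest background, wide peaks above it and all narrower peaks. Wide peaks at the lowest background gather near their median of 32.6, whereas those above it spread from 1.91 to 149 with a median of 7.57.

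Around the limit of 1000 bp, high and low folds were found on both sides. The 5 peaks named just above it, all 1001 bp wide, had folds of 41.01 near Gm11401, 8.74 in Cep128, 4.98 in Gm41257, 45.2 in Hipk1 and 5.74 in Sdhaf3. The 5 just below it, all 1000 bp wide, had 6.18 near Gm23892, 25.4 in Glns-ps1, 5.95 near Gm31711, 6.22 near Zfp804a and 30.4 in Bub1b. The 511 peaks from 1001 to 1050 bp had a median fold of 14.96 and 61.6% lay in gene bodies. For the 523 peaks from 951 to 1000 bp these values were 19.9 and 65.4%.

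Placed by their midpoint, 2063 wide peaks lay inside a RefSeq gene body, 62.7% (interval 61.1% to 64.4%) against 61.2% of narrower peaks. The difference of 1.55 percentage points had an interval from -0.148 to 3.22 and was positive on 9 chromosomes and negative on 7. It turned to -0.572 with a limit of 800 bp and to -1.93 with peaks within 500 bp merged. Split by background, a difference appeared in both kinds. On the lowest background 90.9% of wide peaks (88.8% to 92.7%) lay in a gene body, against 67.6% of narrower peaks, and wide peaks had the higher share on 16 of 16 chromosomes. Above it the shares were 53.1% (51.1% to 55.0%) and 39.7%, higher for wide peaks on 15 of 16 chromosomes. The near-equal overall shares therefore combined a higher share in each kind with a different mix of the kinds. Within the wide peaks, the lowest-background kind exceeded the other by 37.9 percentage points (35.0 to 40.5), again on 16 of 16 chromosomes.

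**Figure D3:**
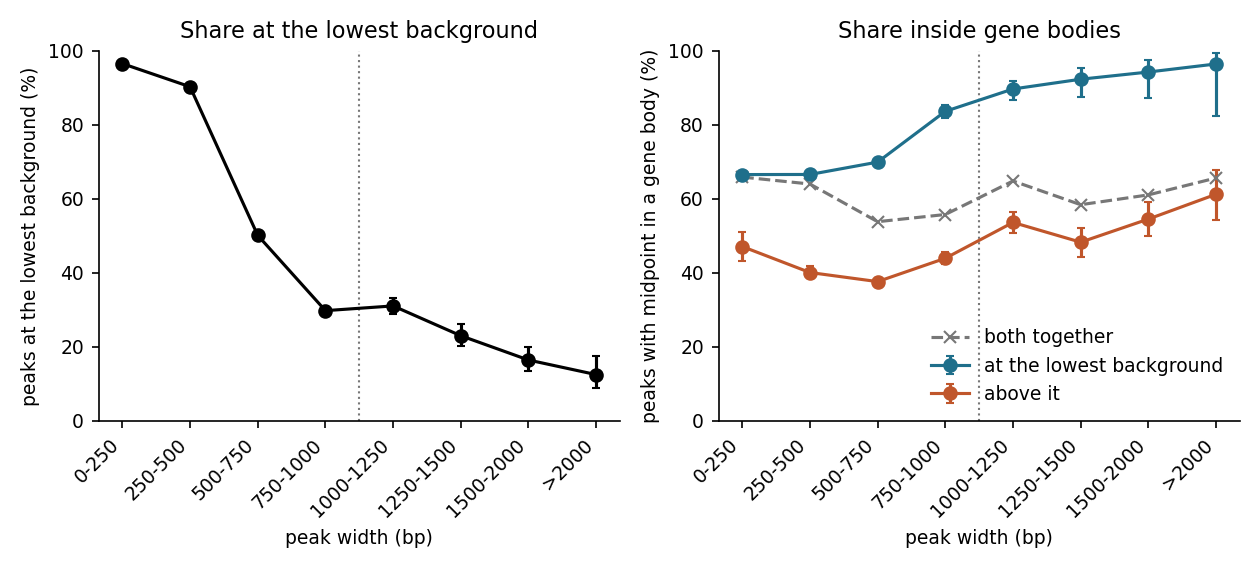
Left, share of peaks at the lowest background (%) by peak width in bp; right, share of peaks with the midpoint in a gene body (%) for peaks at the lowest background, above it and both together, with 95% Wilson intervals. The share in gene bodies at the lowest background runs from 66.5% in the narrowest bin to 96.4% above 2000 bp, whereas the curve for both together stays between 53.8% and 65.9%.

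By gene type, 1821 wide peaks (55.4%) lay in protein-coding genes, 107 (3.25%) in lncRNA genes alone and 135 (4.10%) in other genes such as pseudogenes. The corresponding shares of narrower peaks were 52.8%, 5.54% and 2.84%. Outside every gene lay 1226 wide peaks (37.3%), at a median distance of 23.9 kb from the nearest gene against 16.7 kb for narrower peaks. More than 100 kb from any gene were 199 wide peaks, 194 of them above the lowest background. On the lowest background 86.8% of wide peaks were in protein-coding genes, and 76 (9.06%) were outside genes. Above it 44.6% and 46.9% were. The 1392 wide peaks that combined a higher background with a fold under 10 lay in gene bodies at a rate of 40.2%, and the 1058 with a fold of 10 or more at 69.9%.

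A protein-coding gene end, either the start or the 3′ end, lay within 1 kb of 181 wide peaks (5.50%, 4.77% to 6.34%) and of 4.30% of narrower peaks. The difference of 1.20 percentage points was positive on 13 of 16 chromosomes, but it turned to -0.146 (-0.588 to 0.405) with a 500 bp window and to -2.12 for peaks above 2000 bp, and was 0.0347 above 1500 bp. The shares were 9.42% against 4.95% on the lowest background and 4.16% against 2.11% above it. The RefSeq promoter table gave the strand for 12546 of 15768 protein-coding genes, none on chromosome 18, and so told their ends apart. Genes without a strand were left out of the counts of starts and 3′ ends that follow. Within 1 kb of a start lay 1.81% of wide peaks (1.40% to 2.34%) and 1.07% of narrower ones. Within 1 kb of a 3′ end lay 3.33% (2.76% to 4.02%) and 2.66%. On the lowest background the 3′ end share was 6.59% for wide peaks and 3.15% for narrower ones.

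Inside genes, wide peaks leaned toward the 3′ side. The genes used were the 8231 protein-coding genes of at least 10 kb with a known strand. In these, 45.4% of 1266 wide placements (42.7% to 48.2%) lay in the last 25% of the gene, against 35.5% of 32126 narrower placements. The last 10% of the gene held 21.1% (18.9% to 23.4%) and 16.7% (16.3% to 17.1%). The first 25% held 11.8% of wide and 16.8% of narrower placements. On the lowest background the last 25% held 50.9% of wide and 36.4% of narrower placements, and above it 41.7% and 28.9%. Exon positions were not used here.

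**Figure D4:**
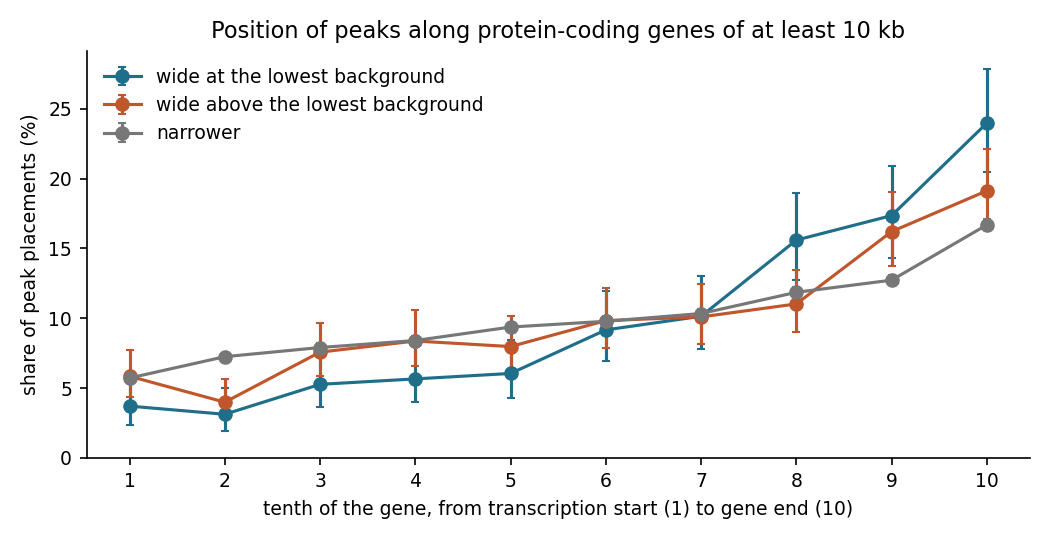
Share of peak placements (%) in each successive 10% of protein-coding genes of at least 10 kb with a known strand, from the transcription start to the gene end, with 95% Wilson intervals, for both kinds of wide peak and for narrower peaks. All 3 lines are highest in the last 10%, where wide peaks at the lowest background reach 24.0% and narrower peaks 16.7%.

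A wide peak covered 77 of 24391 RefSeq transcription starts (0.316%), in 72 genes, of which 48 were protein-coding and 24 lncRNA genes. These starts fell in 71 wide peaks, 2.25% of the wide peaks outside chromosome 18, against 0.823% of narrower peaks. A wider interval has more room to cover a start, and these shares were not adjusted for width. Wide peaks covered 77 starts in 4.45 Mb and narrower peaks 690 in 33.9 Mb, the bases counted with chromosome 18. The 300 bp window around a start, 250 bases before to 50 after it, held a median of 12 CG (quartiles 7 and 15) at starts inside wide peaks. The median was 10 (7 and 13) inside narrower peaks and 7 (3 and 21) at starts in no peak. At least 10 CG were found in 61.0%, 52.8% and 44.2% of these windows and in 44.5% of all 24391. Split by background, the order of wide and narrower peaks turned round above the lowest background but not on it. Of the 77 starts 57 lay on a background above the lowest, with a median of 13 CG and at least 10 in 59.6%, against 14 and 75.9% for narrower peaks of that kind. The 20 starts on the lowest background had a median of 11 and 65.0%, against 9 and 45.2%. For protein-coding starts alone the median was 12 inside wide peaks and 14 over all 15400.

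On covered sequence, at least 1 wide peak lay in the body of 1813 of 36517 genes (4.96%). Among protein-coding genes, 1503 of 15768 (9.53%) had one. Within 1 kb of an end, 405 genes (1.11%) and 199 protein-coding genes (1.26%) had a wide peak. Most genes had few, with 1228 protein-coding genes holding 1, 176 holding 2 and 99 holding 3 or more. Gene length went with these counts. Protein-coding genes with a wide peak had a median length of 44.2 kb, those with narrower peaks only 28.9 kb, and those without a peak 6.30 kb.

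The gene with most wide peaks outside the protocadherin region was Cit, which encodes citron kinase of cytokinesis, on chr5:115845224-116008953. It held 12 wide peaks among 87, with folds from 10.6 to 40.4, and 4 of them stood on the lowest background. Dst, which encodes the cytolinker dystonin, held 8 of 73 over 401 kb. The remaining protein-coding places in the 10 genes with most wide peaks lay in the protocadherin region of chromosome 18, whose alpha genes encode neuronal cell adhesion proteins and share their 3′ exons. The entries Pcdha1 to Pcdha5 overlap and counted the same peaks repeatedly, up to 12 of 33 in Pcdha1. Gm37013, Gm38666 and Gm38667, with 15 of 108, 13 of 104 and 12 of 102, overlap them and run on beyond the alpha genes, and each held 1 wide peak on the lowest background and folds up to 29.9. The 12 wide peaks in Pcdha1 had folds from 4.84 to 12.2, and none was on the lowest background.

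Some genes below that rank stood apart in kind and were picked after their values were seen. Kmt2d, a histone H3 lysine methyltransferase gene, held 6 wide peaks among 19 in 42.4 kb, and all 6 stood on the lowest background with folds of 29.3 to 51.7. Nphp4, a gene of the cilium transition zone, held 7 of 30 and Ube3b, a ubiquitin ligase gene, 5 of 16, and all of these stood on the lowest background too. Ttn, the gene of the giant muscle protein titin, held 7 of 69, the widest 3543 bp. In contrast, Flg, which encodes filaggrin of the epidermis as a long run of near-identical repeats, held 6 of 11 in 20.1 kb, none on the lowest background. Ahnak2 and Plec, which encode a very large scaffold protein and the cytolinker plectin, each held 4, again with none on the lowest background. Their folds ran from 3.39 to 4.21 and from 3.03 to 14.7.

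The Kmt2d and Flg peaks illustrate the 2 kinds peak by peak. In Kmt2d the pileups from the first peak to the last were 286, 310, 251, 330, 215 and 380 reads, each over a background of 6.37 reads. In Flg the pileups were 517, 720, 519, 775, 587 and 681 reads, over backgrounds of 176, 334, 182, 264, 194 and 286 reads. Every Flg pileup exceeded every Kmt2d pileup, while the Flg folds of 2.15 to 3.01 lay below all Kmt2d folds. Reads from near-identical repeats inside Flg cannot be told apart by position, and how the authors treated reads with several alignments is not given in the sources used here. The Flg peak with a background of 334 reads was 1 of 6 wide peaks whose recovered pileup was not matched by a whole number.

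Among the 10 widest peaks, most lay outside genes. The widest, at chr3:6300542-6307661, spanned 7120 bp at a fold of 2.30, with 649 reads over 282, and lay 17.0 kb from Gm41989. The next was 6335 bp at chr10:27818399-27824733 with a fold of 2.60. The third, chr12:5053982-5059722 near Atad2b, was 5741 bp with a fold of 29.3. That at chr2:80811794-80817432 had 5639 bp and a fold of 2.32. Inside genes, S100a7l2 held 5282 bp at chr3:91094973-91100254 with a fold of 3.05. Ahdc1, which encodes a DNA-binding protein with AT-hook motifs, held 5007 bp at chr4:133061263-133066269 with a fold of 36.5. Spen, a transcriptional repressor gene that acts in X inactivation, held 4027 bp at chr4:141474057-141478083 with a fold of 51.4, the widest peak on the lowest background. The other 3 were 3972 bp at chr14:19415699-19419670, 3902 bp at chr3:158735805-158739706 and 3686 bp at chr2:22001656-22005341. That on chromosome 14 had a fold of 15.7, from about 73059 reads over 4644, the highest pileup of any wide peak. Its recovered pileup was not matched by a whole number, so these reads are approximate. Great width thus came with folds from 2.30 to 51.4.

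The 10 highest folds of wide peaks ran from 55.9 to 149, and 4 of them lay close together on chromosome 6. They were 149 in Gm40365 at chr6:47672988-47674573, 102 at chr6:47681387-47683220, 105 at chr6:47747684-47750756 and 59.0 at chr6:47758201-47759908. Elsewhere, Cntnap3, a neuronal adhesion gene, had 66.8 at chr13:64833660-64835300 and a peak outside genes at chr17:46345683-46346765 had 60.8. On the lowest background, Cep170b had 59.4 at chr12:112738043-112739600, Lzts2 56.0 at chr19:45025607-45026772, Tmem181b-ps 56.0 at chr17:6448274-6449807 and Zfp516 on chromosome 18 had 55.9. The 5 lowest folds were 1.91 near Grxcr1 at chr5:68220528-68222265, 1.92 in Bcl11b at chr12:107916484-107917529, 1.96 in Foxo3 at chr10:42196839-42197915, 2.08 in Snx6 at chr12:54774651-54776491 and 2.14 in Stk3 at chr15:35116502-35117558. Their pileups of 387 to 501 reads were above the median of wide peaks, over backgrounds of 203 to 234 reads.

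Wide peaks gathered near one another. Another wide peak lay within 10 kb of 696 wide peaks (21.2%, 19.8% to 22.6%) and of 7.90% of narrower peaks, a difference in the same direction on 16 of 16 chromosomes. Within 1 kb the shares were 6.32% and 1.68%, and within 100 kb 46.8% and 34.5%. The share within 10 kb went from 14.96% at widths of 1000 to 1250 bp to 40.2% above 2000 bp. It was 23.7% on the lowest background and 20.3% above it. A long stretch that the caller divided counts here as neighbouring peaks.

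**Figure D5:**
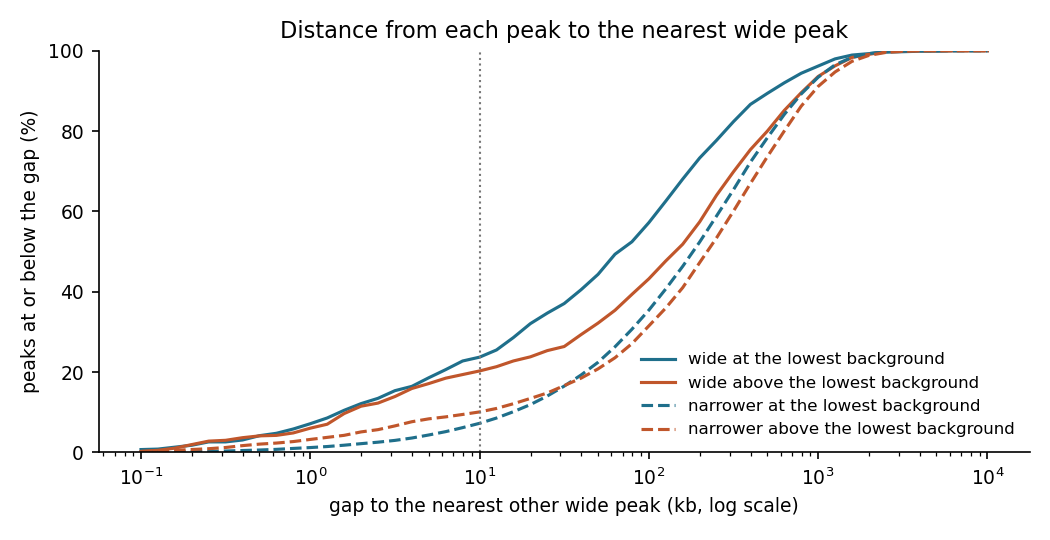
Cumulative share of peaks (%) against the gap to the nearest other wide peak (kb, log scale), for wide and narrower peaks at and above the lowest background, with 10 kb dotted. At 10 kb both wide classes are above 20%, at 23.7% and 20.3%, and the narrower classes are at 7.25% and 10.1%.

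Joined at gaps of up to 10 kb, the wide peaks formed 2593 single peaks, 223 pairs, 55 runs of 3, 16 of 4 and 1 each of 6, 7 and 8. The longest run held 8 peaks in 34.1 kb at chr6:47739134-47773244. The run began inside Gm52861, its last peak lay nearest to Rny3, a Y RNA gene, and 6 of the 8 peaks were outside genes. Its folds were 45.7, 45.3, 105, 45.9, 59.0, 26.9, 36.4 and 42.7 in order, over backgrounds of 8.85 to 21.5 reads. Their midpoints were 4.04 to 5.79 kb apart, with a median of 4.39 kb. The run of 7 lay in the protocadherin alpha cluster, and the run of 6 was that of Flg, at chr3:93280160-93292971, where wide peaks covered 61.1% of the span. In Jag2, which encodes a Notch ligand, 4 peaks covered 67.4% of 8.85 kb. A run over Spen and Zbtb17 covered 65.0% of 14.3 kb, and 4 in Cad, the gene of a pyrimidine synthesis enzyme, 65.0% of 10.1 kb.

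In windows of 100 kb, 466 of 17345 windows with any peak held 2 or more wide peaks, and these held 1143 wide peaks (34.8%). The fullest, over the protocadherin alpha genes, had 11 wide among 24 peaks. The Cit window had 9 of 52 with a median fold of 25.1, and the chromosome 6 window 8 of 27 with a median of 45.5. A window over Map3k1 and Mier3 on chromosome 13 had 7 of 34. Windows over Ahnak2 and Cep170b (of 21), Kmt2d (of 25) and Flg (of 13) had 6 wide peaks each.

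The gaps between consecutive wide peaks were not spread evenly, a pattern looked for after the values were seen. Between 1.5 and 1.7 kb lay 53 gaps, against 18 from 1.3 to 1.5 kb and 11 from 1.7 to 1.9 kb. They came from 15 chromosomes. In 21 of these pairs both backgrounds were under 25 reads, and their median widths were 1320 and 1423 bp. In 18 pairs 1 peak stood on 100 reads or more and the other on 50 to 100 reads, and these pairs came from 8 chromosomes. The higher background had a median of 173 reads and the lower 70.9 reads. Their lower folds had a median of 2.87 and their higher folds 6.44, and no fold exceeded 7.87. Between 3 and 3.3 kb lay 29 gaps on 14 chromosomes, against 2 from 2.8 to 3 kb and 6 from 3.3 to 3.6 kb. Widths recurred too. Peaks of over 2000 to 2100 bp numbered 80, against 54 in the 100 bp below and 31 in the 100 bp above. In 31 pairs less than 10 kb apart, a peak of over 2000 to 2200 bp stood beside one of over 1300 to 1500 bp, with a gap of 90 to 245 bp in 14 pairs and of 3086 to 3194 bp in 9. Repeat annotation was not used here.

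Gene lists chosen with earlier results in view were set beside the 9.53% of all protein-coding genes with a wide peak in the body and the 1.26% with one at an end. Of 38 imprinted genes on covered sequence, 11 (28.9%) had a wide peak in the body and 3 at an end. H13 and Mcts2 were counted through the same peak, and Gnas and Gnasas1 shared a peak too. The list also holds noncoding genes, and the share over all genes was 4.96%. Of 170 peaks in the imprinted gene bodies 11 were wide (6.47%), against 4.10% over all protein-coding genes. Their median length was 45.5 kb, against 18.6 kb, and length was not matched here. With only peaks at the median fold or more, 7.89% of the imprinted genes had a wide peak in the body, against 3.43% of all genes. None of the imprinted wide peaks stood on the lowest background.

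At Gnas, 2 wide peaks were found. That at chr2:174285837-174287319, shared with the antisense transcript Gnasas1, had 207 reads over 74.1, a fold of 2.77, and that at chr2:174326987-174328139, over the start printed above, had 204 over 26.3, a fold of 7.51. The Mcts2 start lay in chr2:152686531-152687830, with 226 reads over 32.0 and a fold of 6.87. The starts of Plagl1 and of the noncoding Hymai shared chr10:13090401-13091415, with 242 reads over 83.9 and a fold of 2.86. Meg3, the noncoding RNA of the Dlk1 domain, had its start in chr12:109540559-109542402, 1844 bp with 159 reads over 11.5 and a fold of 12.8. In Rtl1 the peak with Mir127 at chr12:109591960-109593244 had a fold of 14.4, and that with Mir434 at chr12:109593508-109594690 had 8.65. Mest had 23.7 at chr6:30736342-30737556, with 186 reads over 6.90, and Peg10 12.3 at chr6:4754571-4756140. Kcnk9, a potassium channel gene, had 21.5. The pileups named here all lay below the wide median of 360 reads.

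Of 30 germline genes, 5 (16.7%, interval 7.34% to 33.6%) had a wide peak in the body, and 4 of these peaks covered the gene's start. This interval held the 9.53% of all protein-coding genes. Placed by summit the share was 10%. Of 79 peaks in their bodies 5 were wide (6.33%), a small count beside the 4.10% over all protein-coding genes. The median length of these genes was 38.6 kb. Meioc had the widest, 1947 bp at chr11:102664537-102666483, with 304 reads over 11.2 and a fold of 25.01. Sycp3 had a fold of 16.5 at chr10:88459295-88460538, with 320 reads over 18.4. Sohlh2 had 13.2 at chr3:55181711-55183180, with 411 reads over 30.2. Stra8, the retinoic acid target that starts meiosis, had 8.38 at chr6:34920752-34921991, with 342 reads over 39.9. Piwil2, which acts in the piRNA pathway, had its wide peak inside the gene at chr14:70428424-70429530, with a fold of 33.1, the only one of these 5 on the lowest background. In Sycp3 and Meioc the wide peak was the only peak of the gene.

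Lists of chondrocyte, limb and metabolic genes were small. The interval of each share with a wide peak in the body held the 9.53% of all protein-coding genes. It ran from 5.24% to 36.0% for hypertrophy, 2.65% to 28.9% for limb patterning and 2.94% to 31.4% for energy metabolism genes. None of 17 cartilage matrix genes on covered sequence had a wide peak in the body (0%, interval up to 18.4%). None of the 18 peaks in their bodies was wide, too few to tell from the 4.10% over all protein-coding genes. Of 20 genes of chondrocyte hypertrophy, 3 (15%) had one. These were Gli1 (fold 37.2 at chr10:127333424-127334553) and Gli2 (10.5 at chr1:118837123-118838277), transcription factors of hedgehog signalling, and Runx3 (23.3 at chr4:135150705-135151823), a Runt factor of skeletal development. Of 21 limb patterning genes 2 (9.52%) had one. Tbx5, which specifies the forelimb, had 29.8 at chr5:119882811-119884264 and Meis1, a proximal limb factor, 14.3 at chr11:19013752-19015015. Of 19 energy metabolism genes 2 (10.5%) had one. Slc2a1, the glucose transporter gene, had 31.7 at chr4:119133124-119134166. Ppargc1a, a coactivator of mitochondrial biogenesis, had 27.5 at chr5:51472778-51474424. These peaks did not lie within 1 kb of an end of their gene.

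The Hox genes, transcription factors of body axis identity, had wide peaks in 4 of 39 gene bodies (10.3%, interval 4.06% to 23.6%). This interval held the 9.53% of all protein-coding genes. Of the 33 peaks in Hox genes 4 were wide (12.1%), a small count. A peak of 2655 bp at chr6:52204147-52206801 covered the Hoxa5 start and lay in Hoxa6 and in the longer Hoxa3 model, with 235 reads over 9.09 and a fold of 23.4. Hoxa3 held a second at chr6:52169893-52170927 with a fold of 12.6. Hoxc5 had 27.9 at chr15:103014861-103015886, over Mir615, and Hoxc4 had 17.7 at chr15:103026960-103027994.

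Zinc finger genes named Zfp, many of them KRAB repressors of repeats, had a wide peak in 42 of 242 gene bodies (17.4%), and 50 of their 511 peaks were wide (9.78%). Those at a gene end were in Zfp652 (fold 43.4), Zfp219 (46.4) and Zfp707 (17.1). In Zfp genes of at least 5 kb with a known strand, 12 of 26 wide placements (46.2%, 28.8% to 64.5%) lay in the last 25% of the gene. Of narrower placements, 90 of 297 did (30.3%, 25.4% to 35.8%), and these intervals overlap. Zfp462 and Zfp978 held 3 each. In Zfp978 the pileups of 861 to 976 reads gave folds of 2.79 to 14.7, and in Zfp462 the folds were 17.5 to 31.3. Whether reads were split between similar Zfp genes of chromosome 4 was not tested, so the Zfp978 values are uncertain.

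The clustered protocadherins had a wide peak in 33 of 57 gene bodies (57.9%), but these were 17 separate peaks among 95 (17.9%), because the gene bodies overlap. Dnah genes, which encode axonemal dynein heavy chains and have a median length of 244 kb, had a wide peak in 7 of 14 bodies. Only 10 of their 295 peaks were wide (3.39%), near the 4.10% of all protein-coding genes. Of 723 olfactory receptor genes, whose median length is 0.948 kb, 4 (0.553%) had a wide peak. Of the 48 peaks in these genes 4 were wide (8.33%), a small count from which no raised share can be read. Those in Olfr279, Olfr281 and Olfr282 lay close together at chr15:98437333-98498491. None of 149 vomeronasal receptor genes and none of 70 histone genes had a wide peak, in only 23 and 8 peaks.

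By chromosome, wide peaks made up between 2.88% of peaks on chromosome 19 (86 peaks) and 4.88% on the covered part of chromosome 6 (139 peaks), with most on chromosome 4 (358). The part of the wide peaks on the lowest background ran from 13.8% on chromosome 18 to 43.0% on chromosome 19.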

How the data were processed

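MBD-seq peaks of 1 deposited list were analysed. Per the submitters' processing notes, fastp, Bowtie2 and MACS2 were used with mm10/GRCm38; no order or versions are given. The deposited peak names record a Samtools merge of 3 datasets ahead of calling. The fold is the authors' ratio of summit signal to local background. Each deposited peak also carries −log10 p and −log10 q values, the lowest −log10 q being 20.004, and a deposited score equal to 10 times that −log10 q, cut to a whole number. Starts, ends and summit offsets are deposited positions in bp. The list ended in 1 incomplete line, left out, and covers 16 chromosomes: 1 to 5, 10 to 19 and chromosome 6 to base 88818859. Other chromosomes are absent from the list as held and were not analysed here. Lines sharing an interval numbered 0.

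Pileup and background were solved from fold and p-value with a whole-number pileup, as MACS-type callers define them. A peak matched within 1% of the spacing between whole pileups, as 99.97% did; 25 did not, of which 5 narrower peaks fell below the lowest background. On 5000 simulated peaks 100% of pileups were recovered. Peaks were placed by midpoint on the RefSeq gene table of GRCm38.p6; genes in the first 3 Mb of a chromosome were left out. Strand came from the promoter table, which holds no chromosome 18 entries here and gave a strand for 12546 of 15768 protein-coding genes. Python 3.11.15, numpy 2.4.6, scipy 1.17.1 and pandas 2.3.3 were used.

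No test was run, since no sample has its own value; the planned test on counts was not possible. Named items were the 10 widest peaks, 5 on each side of 1000 bp, the 10 highest and 5 lowest folds, the 10 genes with most wide peaks, the 5 fullest 100 kb windows with ties, and list genes with a wide peak within 1 kb of an end; list genes with a wide peak only inside the body, and other genes said to be so, were named after their values were seen. For the sequences, promoters of list genes inside a wide peak were taken, at most 6. Those of Meg3 and Hoxa5 also qualified and were left out. Members, lists and this rule were chosen with earlier results of these data known. Alternatives changed the width limit, −log10 q, merging, background, fold, chromosome, placement, windows and gene set.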

Additional observations from a re-analysis of the deposited data

Results flagged for a closer look

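Outside the comparisons with genes, 12 of 143 peaks on unplaced contigs were wider than 1000 bp (8.39%, 95% Wilson interval 4.87% to 14.1%, counting error only), against 3.92% on the chromosomes. They drew attention as a signal in sequence that the comparisons do not use, with no control samples to set it against. They lay on 7 of 15 contigs, with 5 on a single contig. Their median fold was 6.20, from 3.62 to 35.3, the widest was 2046 bp, and 1 stood on the lowest background. Their part in any difference between control and cKO was not tested.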

How the results depend on the processing

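No paired analysis was possible because the peaks carry no per-culture values; for the same reason no replicate was left out. Lines sharing an interval numbered 0, so counting them once changed nothing. The differences below are wide minus narrower peaks in percentage points; causes were not tested.

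The gene-body difference of 1.55 was -0.572 above 800 bp and -1.93 with peaks within 500 bp merged, both turned in sign. It was 4.40 above 2000 bp, 3.33 and 7.29 at −log10 q of at least 50 and 100, 23.4 at the lowest background, 13.4 above it and 18.0 at the median fold or more. The gene-end difference of 1.20 turned to -2.12 above 2000 bp and -0.146 with a 500 bp window. It was 0.0347 above 1500 bp, 0.365 merged, 4.46 and 2.05 at and above the lowest background, 3.81 at the median fold or more, 4.85 by any overlap and 3.42 with 2 kb. The clustering difference of 13.3 kept its sign, with 11.4, 10.8 and 6.76 above 800, 1500 and 2000 bp, 9.85 merged, 8.41 among peaks above the lowest background, 17.4 at the median fold or more and 4.65 within 1 kb. The difference in the last 10% of genes of 4.41 was 1.22 above 2000 bp, and the median CG of 12 was 7; both were tried after seeing the data. The share of imprinted and germline genes with a wide peak, 28.9% and 16.7%, was 5.26% and 3.33% above 1500 bp, 0% and 3.33% at the lowest background, 7.89% and 13.3% at the median fold or more, and 26.3% and 10% placed by summit.

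The number of wide peaks was 6734, 753 and 224 above 800, 1500 and 2000 bp, 7229 merged, 839 at the lowest background and 1726 at the median fold or more. In the same order, the share of genes was 8.92%, 1.29%, 0.427%, 9.35%, 1.99% and 3.43%. It was 3.29% above the lowest background, 4.45% without chromosome 4 and 9.53% for protein-coding genes. Above 800, 1500 and 2000 bp, at −log10 q of at least 100, merged, at and above the lowest background and at the median fold or more, the median fold was 16.6, 10.7, 13.4, 17.0, 16.7, 32.6, 7.57 and 28.4. The median pileup was 339, 391, 385.5, 353, 336, 239, 393 and 289 reads, and the median background 17.2, 38.0, 28.1, 18.4, 14.8, 6.37, 54.5 and 6.69 reads.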

Other observations

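Some of the 77 starts in wide peaks belonged to genes of no list, and the examples here were picked after their values were seen, so they show no theme among these starts. The start of Tssk2, a kinase of spermatids, lay in a peak with a fold of 33.3, that of Ccin, a sperm head protein, in one of 1668 bp with 19.4, and that of Ldhal6b, a testis lactate dehydrogenase, in one with 24.1. Dmrtb1, a regulator of the switch from mitosis to meiosis in spermatogonia, had 2 starts in a peak of 1484 bp with a fold of 9.60, and its window around the first held 28 CG. Zap70, a T-cell receptor kinase, had a fold of 35.6 over its start and Tcl1, a lymphocyte and early embryo gene, 34.6. Prph2, a photoreceptor disc protein, had 41.04. In the lncRNA gene Gm40237, a start peak had a fold of 34.7, from about 19901 reads over 572, far above the wide median of 360 reads. Its recovered pileup was not matched by a whole number, so these reads are approximate.

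The antigen receptor loci, which are joined from gene segments in lymphocytes, also held wide peaks. Igk held 7 wide among 122 peaks (5.74%), Tcra 5 of 92 (5.43%) and Igh 4 of 61 (6.56%), against 3.92% of all chromosome peaks. None of these stood on the lowest background, and 74.5% of all wide peaks stood above it. In Igk the folds were 4.29 to 14.3, in Igh 4.98 to 13.8 and in Tcra 2.44 to 25.3.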
